A study of Mus musculus with 6 samples.

Results

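The genes described here set which fuel a muscle fibre burns. They are 10 named genes of the fuel switch between fat and glucose: the fatty acid receptors Ppara and Ppard, the malonyl-CoA enzymes Mlycd, Acaca and Acacb, the pyruvate dehydrogenase kinases Pdk2 and Pdk4, the uncoupling proteins Ucp2 and Ucp3, and Angptl4. Each was read from the array probe sets that carry its symbol and no other, and where a gene had several, from the one with the highest mean. By this rule 9 of the 10 genes, out of 19938 named genes on the array, had a value, and all 9 passed the filter on dim genes, which left 16487 genes for testing. Ucp2 was not analysed here, because no probe set named only for it was among the annotated ones. Expression was measured in gastrocnemius, a calf muscle, of male mice aged 12 weeks, with 3 Sparc knockout and 3 wild type arrays. The knockouts are labelled as homogenous for loss of SPARC, a secreted collagen-binding glycoprotein, and both genotypes carry the strain label B6;129S-Sparctm1Hwe/J, a targeted Sparc allele on a mixed B6 and 129S background. One mouse per array was assumed from the design text. No litter is given, so p-values measure the spread between these arrays.

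Muscle chooses between fatty acids and glucose at a few control points. PPAR alpha and PPAR delta are nuclear receptors that bind fatty acids and, paired with a retinoid X receptor, turn on genes of fat oxidation. Malonyl-CoA, made by the acetyl-CoA carboxylases Acaca and Acacb and removed by malonyl-CoA decarboxylase, Mlycd, blocks the carnitine palmitoyltransferase that lets fatty acids into mitochondria. Pyruvate dehydrogenase kinases switch off the complex that commits pyruvate, from glucose, to oxidation, and Pdk4 is the kinase that rises in fasted muscle. Ucp3 is an inner mitochondrial membrane carrier of muscle whose transcript follows fatty acid supply, and Angptl4 is a secreted inhibitor of lipoprotein lipase and a PPAR target.

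Sparc itself was low in every knockout. Its log2 intensity was 6.74, 6.46 and 5.83 in the knockouts, against 11.8, 11.7 and 11.9 in the wild types, 43.9-fold lower (limma adjusted p = 2.08e-05). The 14 skeletal muscle markers had mean log2 intensities between 11.1 and 13.4, well above the dim filter at 3.90. On the first principal component, which held 46.7% of the variance, knockout array 2 lay at 2.45, against 26.5 and 19.8 in knockout arrays 1 and 3 and -16.8 to -15.8 in the wild types. Spread between arrays was larger among knockouts, with a median SD over genes of 0.163, against 0.0912 among wild types (log2 scale).

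All 9 fuel switch genes had a lower mean in knockout muscle, and none passed the test across all genes. Their log2 changes, knockout over wild type, ran from -0.68 for Ucp3 to -0.09 for Ppara, with a median of -0.30. The median over all genes tested was 5.34e-05, and 8243 of the 16487 had a negative change. By limma 0 members passed an adjusted p of 0.05, a threshold that 0.995% of all genes passed. At an unadjusted (raw) p of 0.05, the lower members were 3 (Mlycd, Ucp3 and Pdk2), where 10.3% of all genes were lower, and 0 were higher, where 8.16% were. The knockout arrays lay wholly below the wild type arrays in 3 members (Ppard, Mlycd and Ucp3), where 13.8% of all genes did so. They lay wholly above them in 0 members, where 11.1% of all genes did. Single arrays moved these counts. Members with all knockout arrays below all wild type arrays were 7 without wild type array 1, where 18.9% of all genes were so, 5 without knockout array 2 (22.3% of all genes) and 5 without wild type array 3 (17.0%). Without knockout array 2, Mlycd at -0.57 (adjusted p = 0.0268) and Pdk2 at -0.57 (adjusted p = 0.0174) passed, with 6.17% of all genes called. Without wild type array 1, Ucp3 passed at -0.89 (adjusted p = 0.0431), with 0.194% of all genes called. In bulk muscle, fewer cells of a type and less RNA per cell cannot be told apart.

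**Figure D1:**
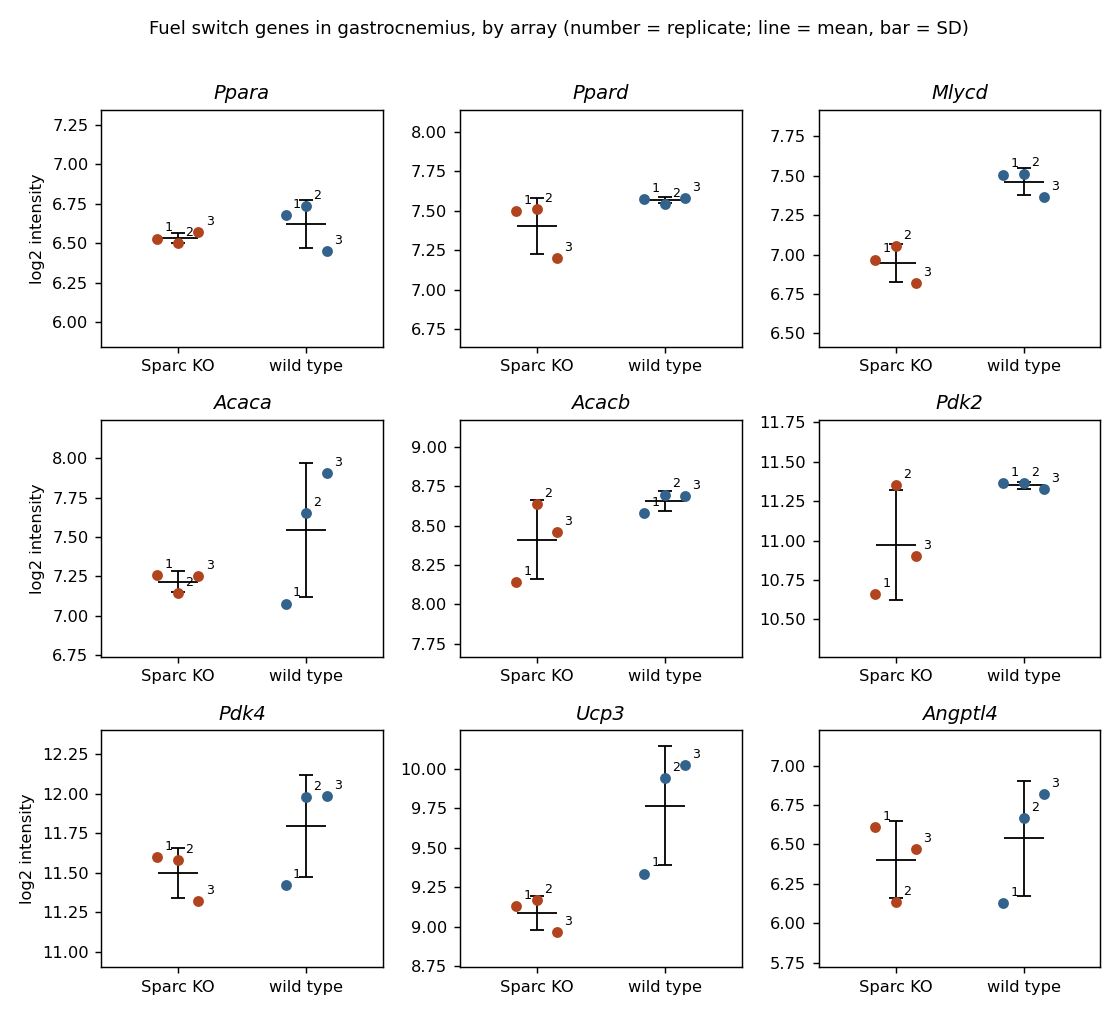
Log2 probe-set intensity (y axis, each panel spanning the same log2 range) of the 9 measured fuel switch genes in Sparc knockout and wild type gastrocnemius. Points are arrays numbered by replicate, the horizontal line is the group mean and the bar the SD over 3 arrays. Knockout points lie below all wild type points for Ppard, Mlycd and Ucp3, and wild type array 1 lies within or below the knockout points for Acaca, Acacb, Pdk4 and Angptl4.

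**Figure D2:**
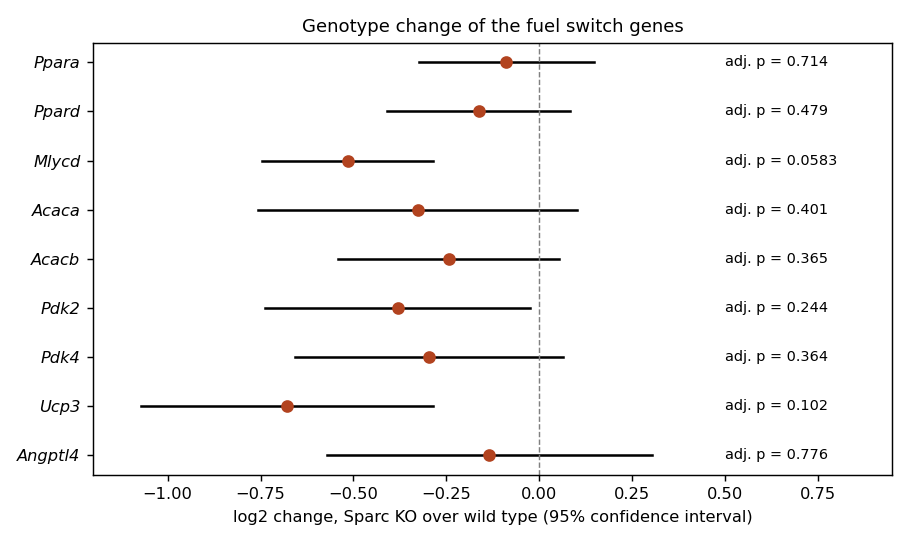
Log2 change, Sparc knockout over wild type (x axis), of the 9 genes, with 95% confidence intervals from the limma fit across all genes and adjusted p-values at the right. Every estimate is below 0, and the intervals of Mlycd, Pdk2 and Ucp3 do not reach 0.

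Neither fatty acid receptor passed the test. Ppara, the receptor that drives the fasting response of liver, read 6.53, 6.50 and 6.57 on the log2 scale in knockouts, against 6.68, 6.74 and 6.45 in wild types. The groups overlapped, since wild type array 3 lay below every knockout. The log2 change was -0.09 (95% confidence interval -0.32 to 0.15, adjusted p = 0.714), with -0.03 without wild type array 2 and -0.17 without wild type array 3. Ppard, a receptor that drives fat oxidation genes in skeletal muscle, read 7.498, 7.51 and 7.20 in knockouts, against 7.58, 7.54 and 7.58 in wild types. The groups did not overlap, but the gap between them was 0.032, and only knockout array 3 stood clearly below the rest. The change was -0.16 (95% confidence interval -0.41 to 0.084, adjusted p = 0.479), and it was -0.06 without knockout array 3.

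The intervals of the receptors allow changes of as low as -0.32 for Ppara and -0.41 for Ppard on the log2 scale. Of the 17 measured partners and coregulators of the PPARs, 0 passed over all genes in either direction by limma. At a raw p of 0.05, 4 were lower and 1 higher (10.3% and 8.16% of all genes). Their median log2 change was 0.04. The retinoid X receptor Rxrg, a dimer partner found in muscle, read 8.36, 8.65 and 8.12 in knockouts, against 9.15, 9.02 and 9.07 in wild types, with no overlap (log2 change -0.71 ± 0.13 SE, adjusted p = 0.0548). It passed with array weights (adjusted p = 0.0348), with a robust variance trend (adjusted p = 0.0478) and without knockout array 2 (-0.84, adjusted p = 0.00878). Without knockout array 2, 3 of the 17 passed, where 6.17% of all genes did. The coactivator Ppargc1a, which promotes mitochondrial biogenesis, had a change of the opposite sign: it read 9.85, 9.71 and 9.59 in knockouts, against 9.31, 9.47 and 9.06 in wild types (0.44 ± 0.12 SE, adjusted p = 0.122).

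Among genes downstream of the receptors, most had negative changes. Of 23 PPAR target genes of fat oxidation and storage, 22 had a negative change, with a median of -0.22 on the log2 scale, and 2 fell over all genes while 0 rose. At a raw p of 0.05, 11 were lower and 0 higher, where 10.3% of all genes were lower and 8.16% higher. The adjusted threshold was passed by 0.995% of all genes. The 2 that fell were Slc27a1, a fatty acid transport protein, at -0.62 ± 0.11 (SE; adjusted p = 0.0463), and Eci1, an isomerase of unsaturated fatty acid oxidation, at -0.51 ± 0.09 (SE; adjusted p = 0.0426). That count of 2 was 0 after median centring, without the variance trend, with the replicate number as a block, and without any 1 array other than knockout array 2, without which it was 3. Of all genes, 6.17% passed without knockout array 2. The count was 1 after repeated quantile normalization (0.904% of all genes) and 4 with array weights (2% of all genes).

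The enzyme that removes malonyl-CoA and both that make it had negative changes. Mlycd, which breaks malonyl-CoA down to acetyl-CoA, read 6.97, 7.06 and 6.82 in knockouts, against 7.51, 7.51 and 7.37 in wild types. The groups were separated by 0.31, more than the range of 0.24 within the knockouts and of 0.15 within the wild types. Its mean was 6.95 ± 0.12 in knockouts and 7.46 ± 0.084 in wild types (SD, n = 3 each), 1.43-fold lower. The log2 change was -0.52 ± 0.10 (SE; 95% confidence interval -0.75 to -0.28), and the adjusted p of 0.0583 missed the threshold. Its p was the 210th smallest of 16487. Leaving out each array in turn gave changes of -0.57 to -0.45.

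Acaca, the cytosolic carboxylase that supplies fatty acid synthesis, read 7.26, 7.14 and 7.25 in knockouts, against 7.08, 7.65 and 7.90 in wild types. The knockouts agreed closely and the wild types did not: wild type array 1 lay below all knockouts. The change of -0.33 (95% confidence interval -0.76 to 0.10, adjusted p = 0.401) was -0.56 without wild type array 1 and -0.15 without wild type array 3. Its other probe set gave the same sign, at -0.28, with wild type array 1 again the lowest of the 6 at 5.89.

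Acacb, the carboxylase at the mitochondrial outer membrane whose product restrains fatty acid entry, read 8.14, 8.64 and 8.46 in knockouts, against 8.58, 8.70 and 8.69 in wild types. Here the wild types agreed and the knockouts spread, with knockout array 2 inside the wild type range. The change was -0.24 (95% confidence interval -0.54 to 0.053, adjusted p = 0.365) and -0.11 without knockout array 1. Mlycd was set against Acacb as their log2 ratio within each array, of which only the difference between genotypes can be read, since it joins different probe sets. It was -1.17, -1.58 and -1.64 in knockouts, against -1.07, -1.18 and -1.32 in wild types. The difference of -0.27 was not separated from array spread by an exact permutation test (two-sided p = 0.3, adjusted p = 0.6 over the 2 ratios tested, where the smallest p that 3 against 3 allows is 0.1).

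Of 21 other genes listed around malonyl-CoA, 20 were measured. They include genes that supply or use it and also regulators, among them subunits of the kinase AMPK. By limma 0 passed over all genes, and the median log2 change was -0.20. At a raw p of 0.05, 7 were lower and 0 higher (10.3% and 8.16% of all genes). The 7 were Mcat and Fasn, the regulators Srebf1 and Mlxipl, and the AMPK subunits Prkab2, Prkag1 and Prkag3. The smallest p-values belonged to Mcat, the mitochondrial malonyl-CoA transacylase, at -0.39 ± 0.11, and to Fasn, the cytosolic fatty acid synthase, at -1.07 ± 0.38 (SE; adjusted p = 0.131 and 0.184). Fasn read 6.79, 7.002 and 7.08 in knockouts, against 7.19, 7.88 and 9.01 in wild types, and its change was -0.58 without wild type array 3. Past the adjusted threshold, 2 of the 20 were lower without knockout array 2, where 6.17% of all genes were called. Between 2 and 9 of the 20 were lower at a raw p of 0.05 when single arrays were left out, and Cpt1b, the muscle carnitine palmitoyltransferase, was not analysed here.

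Of the pyruvate dehydrogenase kinases, Pdk2 was lower at a raw p of 0.05 and Pdk4 was not. The constitutive kinase isoform, Pdk2, read 10.7, 11.4 and 10.9 in knockouts, against 11.4, 11.4 and 11.3 in wild types. Knockout array 2 stood at the wild type level, and knockout arrays 1 and 3 stood below it. Its SD was 0.35 in knockouts, the largest among the 9 genes, and 0.022 in wild types. The change was -0.38 ± 0.16 (SE; 95% confidence interval -0.74 to -0.025, adjusted p = 0.244). It was -0.23 without knockout array 1, and the raw p of 0.05 was met with 1 array left out only when that was knockout array 2.

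Pdk4, the kinase induced by fasting, PPARs and glucocorticoids, read 11.6, 11.6 and 11.3 in knockouts, against 11.4, 12.0 and 12.0 in wild types. Wild type array 1 lay among the knockouts. The change was -0.30 ± 0.16 (SE; 95% confidence interval -0.66 to 0.064, adjusted p = 0.364) and -0.48 without wild type array 1. The log2 ratio of Pdk4 to Pdk2 was 0.94, 0.23 and 0.42 in knockouts, against 0.06, 0.61 and 0.66 in wild types. The difference of 0.08 did not exceed array spread (exact permutation test, two-sided p = 0.9, adjusted p = 0.9 over the 2 ratios), and its sign turned without knockout array 1 (-0.12) or wild type array 1 (-0.11).

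Of 14 other measured genes of the pyruvate dehydrogenase complex and its regulators, the limma fit called 0. A raw p of 0.05 was met by 3 lower and 1 higher, the kinase Pdk3. Over all genes, 10.3% were lower and 8.16% higher. The median log2 change was -0.13. The 2 smallest p-values were in genes of the pathway that makes and attaches lipoic acid, the cofactor of the complex. Lipt1 read 5.39, 5.52 and 5.44 in knockouts, against 5.90, 5.82 and 5.88 in wild types (-0.41 ± 0.09 SE, adjusted p = 0.0767). Lipt2 was at -0.42 ± 0.11 (SE, adjusted p = 0.11). Without knockout array 2, Lipt1 passed (adjusted p = 0.0482), the 1 of the 14 to do so, where 6.17% of all genes passed. Of 19 genes of the fasting, FoxO and glucocorticoid response, which share inducers with Pdk4, 0 passed. At a raw p of 0.05, 2 were higher and 3 lower (8.16% and 10.3% of all genes). Their median was -0.007, which was -0.17 without knockout array 3 and -0.18 without wild type array 1. Without knockout array 2, 2 passed as higher and 1 as lower, where 6.17% of all genes passed in either direction. The metallothionein Mt2, a metal-binding protein induced by glucocorticoids, was at 0.99 ± 0.28 (and passed at 1.35 without knockout array 2, adjusted p = 0.0060), and the insulin receptor substrate Irs2 at -0.41 ± 0.13 (SE; adjusted p = 0.124 and 0.143).

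With all arrays, Ucp3 had the largest change of the 9 genes, while without wild type array 3 that of Mlycd was larger, at -0.56. It read 9.13, 9.17 and 8.96 in knockouts, against 9.34, 9.94 and 10.02 in wild types. The knockouts lay below all wild types by 0.17, while wild type array 1 stood closer to the knockouts than to the other wild types. Its mean was 9.09 ± 0.11 in knockouts and 9.77 ± 0.38 in wild types (SD, n = 3 each), 1.601-fold lower. The log2 change was -0.68 ± 0.17 (SE; 95% confidence interval -1.07 to -0.29, adjusted p = 0.102), with -0.89 without wild type array 1 and -0.55 without wild type array 3.

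The promoter windows of Ucp3 and Mlycd are shown because these genes had, with all arrays, the largest changes of the 9 and knockout arrays wholly below wild type arrays. They run from 250 bases before to 50 bases after the RefSeq transcript start on the build GRCm38.p6, 5′ to 3′ on the plus strand, at chr7:100472741-100473040 for Ucp3 and chr8:119394644-119394943 for Mlycd. Capitals mark AGGTCA, the core motif that PPARs and other nuclear receptors bind, searched on both strands.
Ucp3: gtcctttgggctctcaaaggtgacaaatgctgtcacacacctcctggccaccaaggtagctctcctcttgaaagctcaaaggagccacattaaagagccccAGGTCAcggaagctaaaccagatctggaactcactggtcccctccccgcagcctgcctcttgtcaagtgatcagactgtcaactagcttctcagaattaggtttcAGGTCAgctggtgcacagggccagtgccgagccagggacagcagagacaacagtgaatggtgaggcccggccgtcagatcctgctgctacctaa
Mlycd: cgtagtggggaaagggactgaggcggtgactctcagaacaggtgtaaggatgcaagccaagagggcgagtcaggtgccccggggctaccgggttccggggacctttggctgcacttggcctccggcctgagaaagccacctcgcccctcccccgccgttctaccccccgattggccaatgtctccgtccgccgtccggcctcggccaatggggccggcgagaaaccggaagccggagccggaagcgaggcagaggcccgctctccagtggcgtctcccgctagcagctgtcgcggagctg

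The Ucp3 window held AGGTCA at 2 places, starting 149 and 44 bases before the transcript start, and the Mlycd window had no match to these letters. Windows were available for 9 of the 10 genes, 10 windows in all, with none matched for Angptl4, and 2 of the 10 held the motif (Ucp3 and Acacb). Of all 32851 windows of 300 bases, 16.3% held it. The paired form that PPARs prefer, searched as AGGNCA repeated in the same direction with 1 base between, matched 0 of the 10 windows and 0.381% of all windows. The motif TCAAGGTCA of the oestrogen-related receptors, which overlaps AGGTCA, matched 0 of the 10 and 0.423% of all.

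Among 6 measured relatives of the uncoupling proteins and adenine nucleotide translocases, limma called 0. At a raw p of 0.05, 1 was higher and 0 lower (8.16% and 10.3% of all genes). Ucp1, the uncoupling protein of brown fat, read 4.47, 4.27 and 4.596 in knockouts, against 4.19, 4.15 and 4.17 in wild types (0.28 ± 0.12 SE, adjusted p = 0.253), close to the dim filter at 3.90. Slc25a27, a brain-enriched carrier of the same family, was at -0.22 ± 0.11 (SE; adjusted p = 0.344).

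Angptl4 showed no separation. It read 6.61, 6.13 and 6.47 in knockouts, against 6.13, 6.67 and 6.82 in wild types, and the lowest array of each genotype stood at 6.13. The change was -0.13 (95% confidence interval -0.57 to 0.30, adjusted p = 0.776), which was 0.0021 without knockout array 2, 0.0066 without wild type array 3 and -0.34 without wild type array 1. Of 13 genes that make, anchor or inhibit lipoprotein lipase or take up its products, 0 passed by limma, with a median of 0.02. At a raw p of 0.05, 0 were higher and 2 lower (8.16% and 10.3% of all genes). Apoc1, an apolipoprotein, was at -0.46 ± 0.15, and Vldlr, the very-low-density lipoprotein receptor, at -0.43 ± 0.19 (SE; adjusted p = 0.156 and 0.271). Without knockout array 2, Vldlr passed at -0.68 (adjusted p = 0.00961), the 1 of the 13 to do so, where 6.17% of all genes passed.

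**Figure D3:**
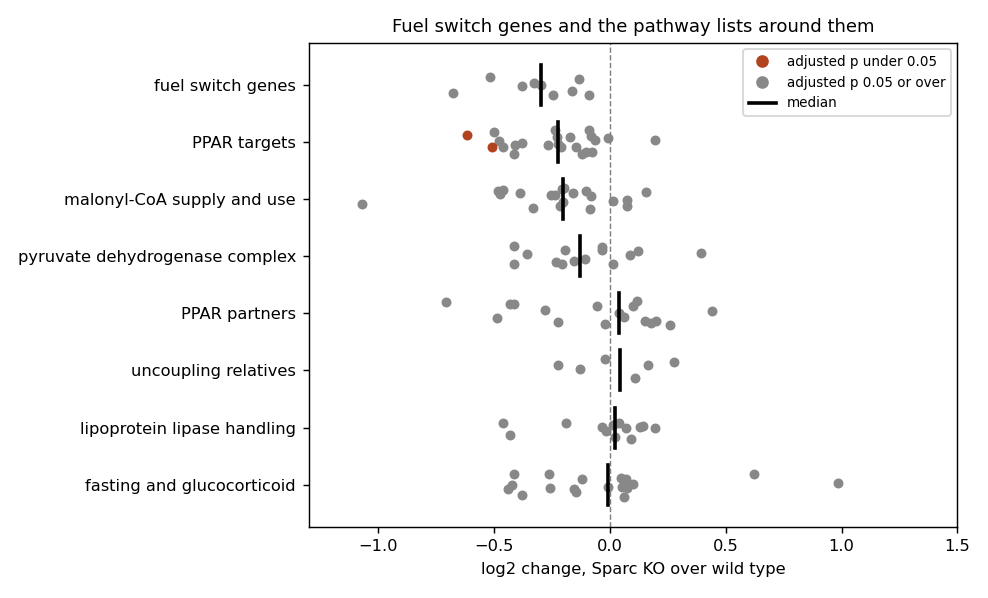
Log2 change, Sparc knockout over wild type (x axis), of each fuel switch gene and of the genes in 7 pathway lists; points are genes, black bars list medians, and red points passed an adjusted p of 0.05. The fuel switch genes, PPAR targets, malonyl-CoA genes and pyruvate dehydrogenase genes have medians from -0.30 to -0.13, and the other lists lie between -0.007 and 0.05.

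The 9 genes did not vary in the same way across arrays. Wild type array 1 was the lowest wild type in 5 of them (Acaca, Acacb, Pdk4, Ucp3 and Angptl4), and in none was it the highest. Knockout array 2 was the highest knockout in 5 (Ppard, Mlycd, Acacb, Pdk2 and Ucp3). The SD was larger in knockouts for 4 genes and larger in wild types for 5, whereas 75.4% of all genes had the larger SD in knockouts. Acaca had the largest wild type SD, at 0.42, and Ppard the smallest, at 0.019.

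Markers of other cells were also read, and their part in the results was not tested. With all arrays, 0 of them passed the adjusted threshold by limma in any of these lists. The 14 measured adipocyte markers were averaged in each array as log2 values centred on the mean of the wild types, giving -0.45, -0.44 and -0.53 in knockouts, against -0.42, 0.19 and 0.24 in wild types. Wild type array 1 thus stood above all 3 knockouts but close to them in this list, and within or below the knockout range in Acaca, Acacb, Pdk4 and Angptl4. Their summed intensity was 9473 to 12914 in knockouts and 11639 to 14945 in wild types, 13 of 14 had negative changes, and none was under the dim filter. By limma 0 passed, with 4 lower at a raw p of 0.05 (10.3% of all genes). Without wild type array 1, 9 were lower at a raw p of 0.05 (7.22% of all genes). The count past the adjusted threshold was 1 with array weights, with the replicate block or without knockout array 3, and 2 without knockout array 2 or wild type array 1. Of all genes, 6.17% passed without knockout array 2 and 0.194% without wild type array 1. Dgat2, a triglyceride-making enzyme also found in muscle, was at -0.73 ± 0.14, and Retn, the fat-cell hormone resistin, at -1.44 ± 0.37 (SE; adjusted p = 0.058 and 0.102). Dgat2 passed with the replicate block (adjusted p = 0.0369), with array weights and without knockout array 2 or 3 (-0.89 without array 3, adjusted p = 0.0171), and Retn passed without wild type array 1 (-1.96, adjusted p = 0.00239).

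Macrophage markers were summed to 3524 to 6458 in knockouts and 2510 to 2798 in wild types. All 14 had positive changes, 10 of them at a raw p of 0.05 and 0 past the adjusted threshold by limma. Over all genes, 8.16% were higher at that raw p. Mpeg1, a perforin-like macrophage gene, was at 1.67 ± 0.33, and Cd68, a lysosomal macrophage marker, at 0.99 ± 0.23 (SE; adjusted p = 0.0583 and 0.0858). Mpeg1 passed with the replicate block (adjusted p = 0.0235), with array weights (adjusted p = 0.0383) and without knockout array 2 (adjusted p = 0.00227). Without knockout array 2, 3 of the 14 passed, where 6.17% of all genes did. Without knockout array 1 the median of the list was 0.36, against 0.66 with all arrays, and 2 changes were negative. Fibroblast and tendon markers were also all positive, 13 of 13, with summed intensities of 17974 to 26156 in knockouts and 15017 to 16882 in wild types and 0 past the adjusted threshold. Without knockout array 1, 4 of the 13 were negative, and without knockout array 2, 3 passed, where 6.17% of all genes did. Thbs4, a matricellular protein of tendon, was at 1.15 ± 0.23 (SE; adjusted p = 0.0593), and passed with the replicate block (adjusted p = 0.00698). The median of the list was 0.71, and 0.41 without knockout array 3. Pericyte and smooth muscle markers were positive in 12 of 12 (5877 to 6237 in knockouts, 4916 to 5557 in wild types). By limma 0 passed, and 5 were higher at a raw p of 0.05. Without knockout array 2, 2 of these changes were negative, and 1 was after median centring or without knockout array 1. Endothelial markers had a median of -0.01 over 12 genes (3225 to 5181 in knockouts, 4065 to 4493 in wild types), but 0.21 without knockout array 3, with 5 higher at a raw p of 0.05, and -0.17 without knockout array 2. Of 3 measured erythroid markers, 2 were negative (105 to 127 in knockouts, 139 to 162 in wild types), and 2 more, Epb42 and Rhag, were under the dim filter. Of the 3, Alas2 had the smallest p, at -0.84 ± 0.19 (SE; adjusted p = 0.0788). It passed with array weights (adjusted p = 0.0405), where 2% of all genes passed. Without knockout array 2 it also passed (adjusted p = 0.0253), where 6.17% of all genes did.

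Markers of muscle fibres varied between arrays. Skeletal muscle markers were summed to 81168, 91832 and 90075 in knockout arrays 1, 2 and 3, and to 93291 to 93481 in wild types. Knockout array 1 was the lowest, as it was for Pdk2 and Acacb. Relative to its wild type mean, Pdk2 stood at -0.69, -0.0012 and -0.45 in knockout arrays 1, 2 and 3. A link between the markers and these genes was not tested. Of the 14 skeletal muscle markers, 10 had negative changes, the median was -0.15, and 0 passed the adjusted threshold. The knockout arrays lay wholly below the wild types in 9, where 13.8% of all genes did so. They lay wholly above in 2, where 11.1% of all genes did. Creatine kinase, Ckm, was at -0.28 ± 0.08 and titin, Ttn, at 0.47 ± 0.15 (SE; adjusted p = 0.133 and 0.155). Without knockout array 2, Ckm passed at -0.34 (adjusted p = 0.0281), 1 of 4 of these markers that passed as lower. Of all genes, 6.17% passed without that array. Ttn was at 0.31 without knockout array 3. Slow oxidative fibre markers were summed to 4516 to 10913 in knockouts and 7423 to 8407 in wild types. Myl3, a slow-muscle myosin light chain, fell by 1.23 on the log2 scale (adjusted p = 0.0256), the only 1 of 10 to pass. It did not pass without knockout array 1 or any 1 wild type array (adjusted p = 0.0513 to 0.156). Without knockout array 3, 5 of the 10 were lower past the threshold, where 0.667% of all genes were called. Without knockout array 2, 1 was lower and 1 higher past it, where 6.17% of all genes were called. The list then had 6 negative changes and a median of -0.04, against 8 and -0.36 with all arrays.

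**Figure D4:**
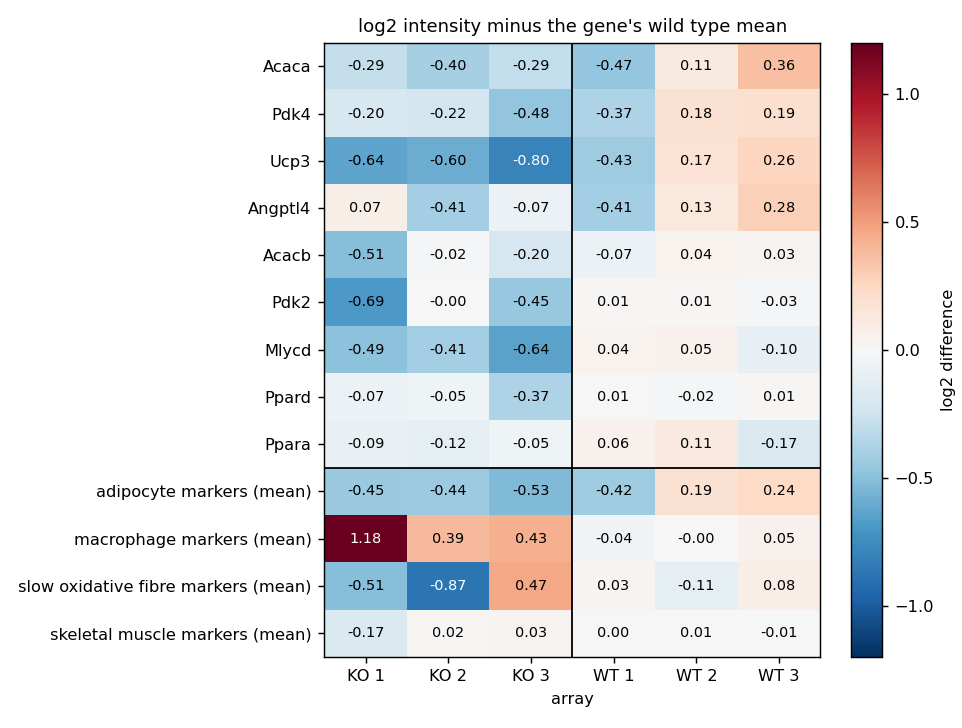
Log2 intensity relative to the gene's wild type mean in each array (columns, 3 Sparc knockouts left of 3 wild types), for the 9 genes and, below the line, the mean of 4 marker lists. Wild type array 1 is negative in Acaca (-0.47), Pdk4 (-0.37), Ucp3 (-0.43), Angptl4 (-0.41) and the adipocyte markers (-0.42), while Pdk2 is negative in knockout arrays 1 (-0.69) and 3 (-0.45).

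Genes with the most similar pattern were found for the 4 members with the largest changes, as the smallest root mean square (RMS) difference of wild-type-centred log2 values over the 6 arrays. This is a description of likeness, with no test. Nearest to Mlycd were Eci1 (RMS difference 0.032), described above, and Cbr1, a carbonyl reductase (0.042). Nearest to Ucp3 were Prkar2b, a regulatory subunit of protein kinase A (0.086), and Slc1a1, a glutamate transporter (0.11). Prkar2b stood at -0.54 in wild type array 1, within the knockout range of -0.80 to -0.50. Nearest to Pdk2 were Rilpl1 (0.053) and Eri3 (0.063), both high in knockout array 2 relative to knockout arrays 1 and 3. Nearest to Acaca were H2bfm (0.098) and Trarg1, a regulator of glucose transporter trafficking known from fat cells (0.10).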

How the data were processed

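Total RNA of 6 gastrocnemius samples was labelled and run on Affymetrix mouse gene arrays, 1 per sample. The deposited values are probe-set intensities, made by the authors with RMA (background correction, normalization between arrays, probe summary) and, per the submitters' processing notes, Affymetrix Expression Console 1.3.0.187. They ran from 1.59 to 13566, a linear scale, so log2 was taken, without an offset, where the planned tests had expected log2 values. RMA shrinks differences between dim values, and no detection calls or depth exist, so precision is limited by the number of arrays. The sources used here do not give the probe sets' genome build. All 6 value columns were used.

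Of 35556 probe sets, 21789 had 1 gene symbol in the platform annotation, 1621 had several and were not used, and 12146 were unnamed. By Entrez ID, 21698 matched RefSeq (GRCm38.p6), and 0 symbols changed. The highest-mean probe set of each gene was kept, and genes with a mean under the 25th percentile over all probe sets (log2 value 3.90) were dropped. The genotype test was limma 3.58.1 (R 4.3.3; lmFit, eBayes with a variance trend, two-sided, Benjamini-Hochberg over all 16487 genes, threshold 0.05), and ratios of 2 genes with an exact permutation test over arrays. A planned ratio of Ucp3 to Ucp2 was not computed. The fit was tested on simulated data. The genes, 15 lists and tests were chosen with earlier results of these data known. Named genes were the members, Sparc and the 2 most similar genes of 4 members. In each list, up to 3 genes past the threshold were chosen for naming, or else the 2 with the smallest p. Of those chosen, only Thbs4 was named among fibroblast and tendon markers and only Alas2 among erythroid markers. None was named among pericyte and smooth muscle or endothelial markers. The malonyl-CoA regulators, the kinases Pdk1 and Pdk3, and other list genes whose absence is stated, were named after their values were seen. Alternatives were median centring, repeated quantile normalization, other dim filters, averaged probe sets, other variance models, array weights, a replicate block, and each array left out. Promoter sequences are RefSeq's.

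Replicate numbers recur in both genotypes. The deviations of same-numbered arrays from their group means correlated at 0.0088, 0.082 and -0.020, so the numbers were not taken to pair mice.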

Additional observations from a re-analysis of the deposited data

How the results depend on the processing

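The count of 164 genes called over all genes was 103 after median centring and 329 with array weights, and 27 to 1017 with single arrays left out: 32, 30 and 27 without wild type arrays 1, 2 and 3, 1017 without knockout array 2, and 174 and 110 without knockout arrays 1 and 3. The count of 0 fuel switch genes called was 1 with array weights (Mlycd, adjusted p = 0.0464) and 0 to 2 with single arrays left out. No gene of the 9 passed with the replicate number as a block, which gave 123 genes over all. The block left the log2 ratio differences at -0.27 for Mlycd to Acacb and 0.08 for Pdk4 to Pdk2. For Mlycd to Acacb the exact sign-flip permutation p was 0.25, the smallest that 3 pairs of arrays allow. Of 135 refits of the 9 changes, 129 kept their direction and their side of the threshold, 4 passed it (named above) and 2 turned sign. The 2 were Angptl4, at 0.0021 and 0.0066, within a range of -0.34 to 0.0066 over single arrays left out. The ratio of Pdk4 to Pdk2 ranged from -0.12 to 0.23 over the same, turning sign without knockout array 1 or wild type array 1, and that of Mlycd to Acacb from -0.42 to -0.18. The median over all genes moved by at most 0.041, after median centring. The causes were not tested. With 3 arrays a group, the 95% intervals are wide, and a missed threshold does not show equal levels.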
